A study of Saccharomyces cerevisiae with 6 samples.

Results

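Gene expression in the yeast Tra1 mutant M8 was compared with that in the wild type (WT) on 4 one-colour Affymetrix arrays, 2 per strain, out of 6 arrays in the series. All 5656 genes with a probe set naming a single gene entered the comparison, each read by its brightest such probe set. M8 belongs to the mutants of Tra1 that the series names Gal4 interaction defective, and the WT strain carries no such change. Both strains grew in YPD, a rich glucose medium, without treatment, and total RNA of whole cells was hybridised. The other mutant of that class, M1, with 2 arrays, stayed outside the fit, so its spread did not enter. Not given in the sources used here were the residues changed in M8, the age of the cultures, the mating type and whether a wild-type TRA1 copy remained. The arrays are duplicates, with no word on separate cultures, so the p-values measure only how these samples differ, and that spread may be technical. In RNA from whole cultures, fewer cells of a kind and less RNA per cell cannot be told apart.

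Tra1 is a very large protein of the phosphatidylinositol 3-kinase-related kinase family that has lost kinase activity. It is shared by the histone acetyltransferase complexes SAGA and NuA4, and it is a surface that transcription activators such as Gal4 contact to bring these complexes to promoters. Its folding and assembly depend on Hsp90 and the Tel2-Tti1-Tti2 cochaperone.

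In M8, 16 genes rose and 7 fell. The genes that rose encode chaperones (HSP82, SSE2, HSP78), mitochondrial and acetate metabolism enzymes (PDH1, IDH1, ALD4, ALD6), a lysine synthesis enzyme (LYS9), carbohydrate stress proteins (TSL1, SOL4), iron response proteins (TIS11, FIT2), and RDS1, NCE103, AVT6 and TFS1. The genes that fell were HSP30, TPO2, IZH2, WIP1, STP4 and DAL4, and the small nucleolar RNA gene SNR68. The fit was limma on the log2 values, and a gene was called at a Benjamini-Hochberg adjusted p under 0.05. Over 5656 genes, 0.407% were called, 0.283% higher and 0.124% lower. The adjusted p of the 23 genes lay between 0.0137 and 0.0461, and their differences were at least 0.60 on the log2 scale. In all 23 genes the arrays of one strain lay apart from those of the other, with a gap of 0.53 to 1.07. The calls came from these same arrays, so this separation is no further support. Over all genes, both M8 arrays lay above both WT arrays in 29.0% and below both in 19.1%. All 23 calls were lost when the 6 arrays shared an estimate of spread (limma adjusted p 0.125 to 0.653), in the ordinary linear model (0.291 to 0.443), after quantile normalization (0.0638 to 0.109) and when every single-gene probe set was tested by itself (0.0503 to 0.0929). The direction of the 23 genes was the same in each of these. Leaving out WT replicate 1 gave 501 calls and leaving out WT replicate 2 gave 635, against 43 and 27 for M8 replicates 1 and 2, where the lone array is assumed to vary like the other strain.

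**Figure D1:**
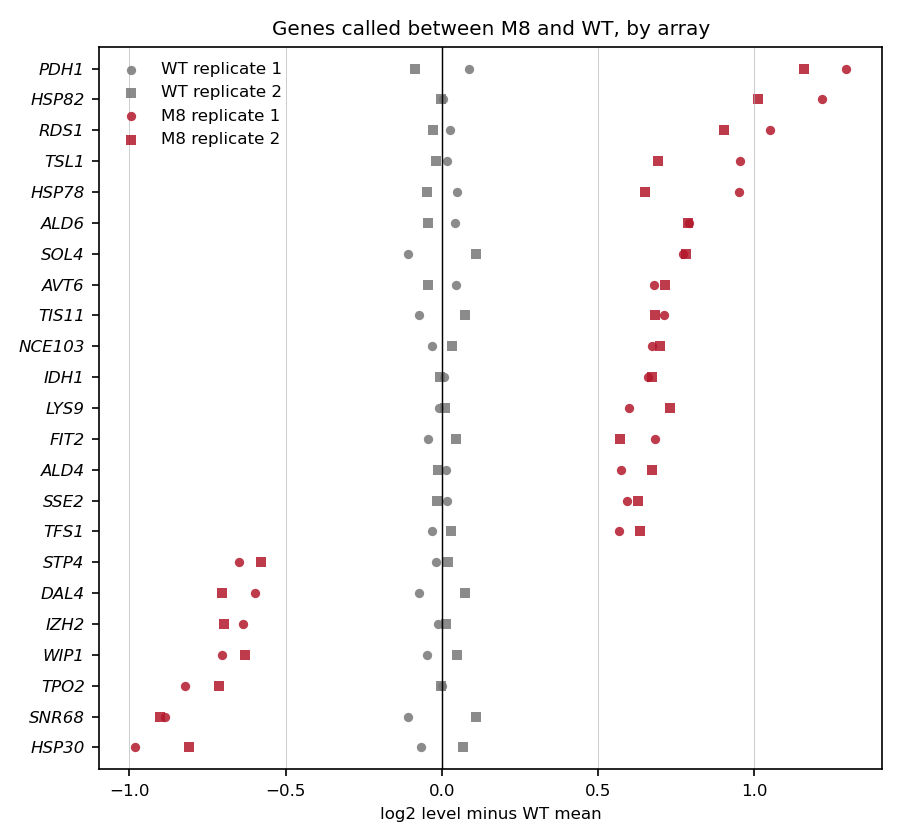
Log2 level of each of the 23 called genes on the 2 WT arrays (grey) and the 2 M8 arrays (red), given as the difference from the WT mean of that gene. Circles are replicate 1 and squares replicate 2. The genes were called on these same arrays, and the M8 arrays lie clear of both WT arrays in each. PDH1 is at the top (mean difference 1.23) and HSP30 at the bottom (mean difference -0.90).

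Most differences were small. Only 3 genes differed by 2-fold or more, and 41 by 1.5-fold or more, of which 29 were higher and 12 lower. The median difference over all genes was 0.029 and 57.0% of genes had a higher mean in M8. A gene with an unadjusted p under 0.05 is termed nominally higher or lower here, which holds for 10.2% and 5.91% of all genes, where chance gives about 283 genes in all. Both M8 arrays lay above both WT arrays in 29.0% of genes and below both in 19.1%. These shares are the background for the counts given below. The SD over genes of the difference between duplicates was 0.198 for WT and 0.142 for M8, and between arrays of the 2 strains it was 0.209 to 0.234. Centring each array on its median moved the share of higher genes among the calls from 69.6% to 58.8%, and among the genes at an unadjusted p under 0.05 from 63.4% to 51.9%. After quantile normalization the latter share was 48.0%.

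**Figure D2:**
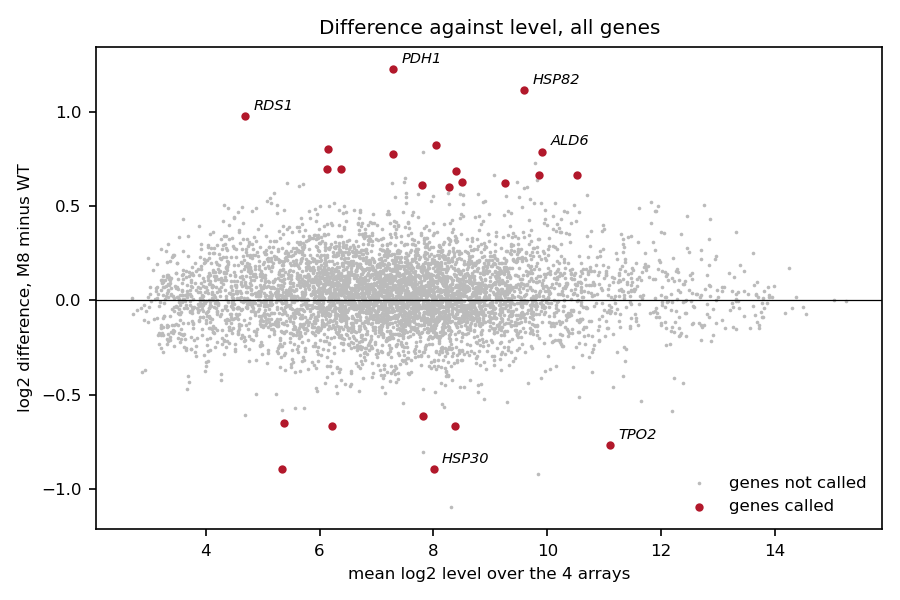
Log2 difference of M8 minus WT against the mean log2 level over the 4 arrays for all 5656 genes, with the 23 called genes in red. Most genes lie within a narrow band around 0, and the called genes span low levels (RDS1) to high levels (TPO2).

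TRA1 itself differed from WT by 0.46 (SE 0.135, n = 2 per strain) with a limma adjusted p = 0.170, so no change was called. Its level was 8.41 and 8.11 in WT and 8.85 and 8.59 in M8. Both M8 arrays lay above both WT arrays, as in 29.0% of all genes. Its 13 probe sets, read on the same arrays, differed by -0.17 to 0.60, with a median of 0.16 and 12 of them above 0. GAL4 stood at 4.77 and 4.62 in WT and 4.88 and 4.83 in M8, a difference of 0.16 with an adjusted p = 0.445. None of the 10 measured Gal4 targets was called, and their median was 0.0044, with 0.12 when M8 replicate 1 was left out, -0.058 when M8 replicate 2 was, and -0.024 after median centring, so it had no settled sign. GCY1, a glycerol dehydrogenase gene, was the single nominally higher member, at 0.41 (SE 0.093, limma adjusted p = 0.107). It read 7.03 and 7.05 in WT and 7.50 and 7.40 in M8. The others lay between -0.19 (FUR4, a uracil permease gene) and 0.16 (MTH1, a glucose signalling repressor gene), with GAL1 at 0.15, GAL2 at 0.090, GAL7 at -0.084, GAL10 at -0.041, GAL80 at 0.011 (-0.018 after median centring), GAL3 at -0.0017 and PCL10 at -0.0057. Glucose, the sugar of this medium, represses the galactose genes in yeast.

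Among the subunits that surround Tra1, no gene was called. Of 18 other SAGA subunits, SPT3, which contacts the TATA-binding protein, was nominally higher (0.27) and ADA2, an adaptor of the acetyltransferase, was nominally lower (-0.31). Of 12 other NuA4 subunits, the scaffold gene EAF1 (0.32) and YAF9, a histone reader gene (0.27), were nominally higher and 0 were lower. Of 25 Mediator subunits 2 were nominally higher and 2 lower. The medians were -0.016 for SAGA, 0.0049 for NuA4 and 0.044 for Mediator. With 1 array left out they ran from -0.011 (M8 replicate 1) to 0.011 (M8 replicate 2) for SAGA, from -0.044 (M8 replicate 1) to 0.044 (WT replicate 1) for NuA4, and from 0.033 (M8 replicate 2) to 0.077 (WT replicate 2) for Mediator. After median centring they were -0.044, -0.024 and 0.015. Of the 13 genes of phosphatidylinositol 3-kinase-related kinases and their assembly factors, TRA1 and the cochaperone gene TTI1 (0.39) were nominally higher and 0 were lower. The 8 subunits of the cytosolic chaperonin CCT held 0 genes in either direction, with a median of -0.019 (0.076 and -0.13 without WT replicates 1 and 2, and -0.100 and 0.054 without M8 replicates 1 and 2).

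Most chaperone genes had higher means in M8, 29 of 32. Hsf1, the heat shock factor, drives most of them in yeast. Of these chaperones and cochaperones 3 rose and 0 fell, 18 were nominally higher and 0 lower, and the median was 0.33. Both M8 arrays lay above both WT arrays in 23 of the 32 and below in 3. HSP82, the inducible Hsp90, stood at 9.04 and 9.03 in WT and at 10.26 and 10.05 in M8. It rose 2.16-fold, by 1.11 on the log2 scale (SE 0.103, adjusted p = 0.0137). Its near-identical constitutive copy HSC82 differed by 0.27 (adjusted p = 0.312), from 12.66 and 12.46 to 12.94 and 12.71. Probe sets of such copies can read both transcripts, as can those of SSA1 and SSA2, LYS20 and LYS21, TPO2, and the ribosomal protein genes named below.

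Several Hsp90 cochaperones were nominally higher without passing the adjusted test. AHA1, the activator of the Hsp90 ATPase, read 7.98 and 7.97 in WT and 8.46 and 8.64 in M8, a difference of 0.57 (adjusted p = 0.0613). STI1, which bridges Hsp70 and Hsp90, differed by 0.54 (adjusted p = 0.0626), from 9.49 and 9.35 to 9.94 and 9.98. The prolyl isomerase gene CPR6 differed by 0.40 and the p23 homologue SBA1 by 0.42. In these 4 genes, named for their small p on the same arrays, both M8 arrays lay above both WT arrays, as in 29.0% of all genes. The 10 genes of the Hsp90 system had a median of 0.37, with 6 nominally higher and 0 lower. This grouping of the chaperones by system was made after their values were seen.

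In the Hsp70 system, SSE2, a nucleotide exchange factor of the Hsp110 family, rose by 0.61 (SE 0.090, adjusted p = 0.0438). It went from 7.50 and 7.47 in WT to 8.08 and 8.12 in M8. SIS1, a J-domain cochaperone that also restrains Hsf1, differed by 0.66 (adjusted p = 0.0588), from 8.87 and 8.59 to 9.43 and 9.36. The constitutive Hsp70 genes SSA2 and SSA1 differed by 0.51 and 0.33, the J-domain gene YDJ1 by 0.34 and SSE1 by 0.28. The 10 genes of this system had a median of 0.30, with 6 nominally higher and 0 lower. The disaggregase gene HSP104 read 7.59 and 7.24 in WT and 8.22 and 8.19 in M8. Its difference of 0.79 had an adjusted p = 0.0504, just outside the threshold, and the WT duplicates lay further apart than the M8 duplicates.

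**Figure D3:**
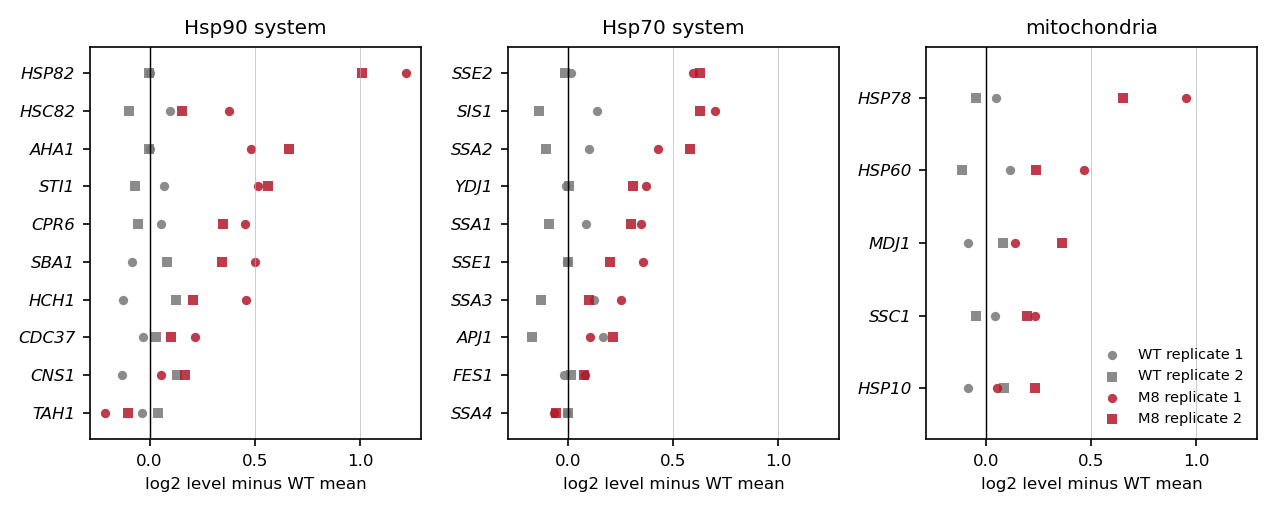
Log2 level minus the WT mean of each gene for chaperones of the cytosolic Hsp90 system, the cytosolic Hsp70 system and mitochondria, on the 2 WT arrays (grey) and 2 M8 arrays (red), with circles for replicate 1 and squares for replicate 2. HSP82 and HSP78 stand furthest to the right, while SSA4 and TAH1 lie at or below the WT arrays.

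Of 5 mitochondrial chaperones 1 rose, and 3 were nominally higher and 0 lower. HSP78, the mitochondrial disaggregase, rose by 0.80 (SE 0.119, adjusted p = 0.0438), from 5.79 and 5.69 in WT to 6.69 and 6.39 in M8. HSP60, the chaperonin of the matrix, differed by 0.35, and SSC1, the matrix Hsp70, by 0.21. Other stress chaperones had differences near or below 0. HSP26, a small heat shock protein gene strongly induced by heat, stood at 7.01 and 7.24 in WT and 7.20 and 7.10 in M8, a difference of 0.024 (adjusted p = 0.937; -0.0042 after median centring). The stress-inducible Hsp70 gene SSA4 and the Hsp90 cochaperone gene TAH1 were among the 3 of 32 chaperone genes with the lower mean in M8, at -0.058 and -0.16. Of 18 unfolded protein response genes, which serve folding in the endoplasmic reticulum, 2 were nominally higher and 0 lower.

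Genes of the general stress response, which Msn2 and Msn4 activate, mostly had higher means, 34 of 41. Of 41 measured genes 4 rose (TSL1, SOL4, ALD4, TFS1) and 0 fell, 22 were nominally higher and 2 lower, and the median was 0.28. TSL1, the regulatory subunit of the trehalose synthase complex, stood at 7.64 and 7.61 in WT and 8.58 and 8.32 in M8. It rose 1.77-fold, by 0.82 (SE 0.111, adjusted p = 0.0354). TFS1, an inhibitor of carboxypeptidase Y, went from 7.94 and 8.0 to 8.54 and 8.61, a rise of 0.60 (adjusted p = 0.0461).

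Trehalose and glycogen are the storage carbohydrates of yeast. PGM2, the phosphoglucomutase that supplies both, read 7.24 and 7.10 in WT and 7.89 and 7.75 in M8, a difference of 0.65 with an adjusted p = 0.0504. GLK1, glucokinase, differed by 0.56 (adjusted p = 0.0507) and TPS1, trehalose-6-phosphate synthase, by 0.46 (adjusted p = 0.107). The glycogen debranching gene GDB1 differed by 0.41. The 10 trehalose and glycogen genes had a median of 0.36, with 7 nominally higher and 0 lower, a grouping also made after the values were seen.

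The 2 nominally lower members of the stress list were HSP12, which encodes a small membrane-associated stress protein, and SPI1, a cell wall protein gene. HSP12 stood at 12.51 and 12.69 in WT and 12.15 and 12.17 in M8, a difference of -0.44 (SE 0.100, adjusted p = 0.107). SPI1 read 8.34 and 8.52 in WT and 8.01 and 7.96 in M8, a difference of -0.45 (adjusted p = 0.107). In M1 the HSP12 arrays read 12.70 and 12.66, inside or above the WT range. The 22 antioxidant genes, with 3 nominally higher and 1 lower, had a median of 0.048 (0.0067 without M8 replicate 1, 0.077 without M8 replicate 2, and 0.020 after median centring).

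Enzymes on the way to 2-oxoglutarate, the precursor of glutamate and lysine, were nominally higher in M8. In the retrograde response, mitochondrial signals act through Rtg1 and Rtg3 on the early enzymes of the citric acid cycle. The list of 11 genes held 8 nominally higher and 1 lower, with 1 called, and its median was 0.45. Its 7 enzymes (CIT1, CIT2, ACO1, IDH1, IDH2, DLD3, PYC1), set apart from its 4 regulators after the values were seen, were nominally higher with a median of 0.52, and 1 of them, IDH1, rose. IDH1, a subunit of mitochondrial isocitrate dehydrogenase, stood at 10.19 and 10.18 in WT and at 10.84 and 10.86 in M8. The rise was 1.59-fold, 0.67 on the log2 scale (SE 0.089, adjusted p = 0.0354). The duplicates of either strain lay close together, and the gap between strains was far wider.

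CIT2, peroxisomal citrate synthase and a standard reporter of this pathway, read 9.19 and 9.13 in WT and 9.68 and 9.89 in M8, a difference of 0.63 (adjusted p = 0.0553). Its mitochondrial counterpart CIT1 differed by 0.51 (adjusted p = 0.0689), aconitase ACO1 by 0.52, the other isocitrate dehydrogenase subunit IDH2 by 0.45 and the D-lactate dehydrogenase gene DLD3 by 0.56. PYC1, pyruvate carboxylase, differed by 0.39. In each of these both M8 arrays lay above both WT arrays, as in 29.0% of all genes. Of the 4 regulators in the list, RTG3 was nominally higher (0.24) and RTG1 nominally lower (-0.27). Of 39 respiratory chain genes 6 were nominally higher and 3 lower, with a median of 0.031 (-0.052 without WT replicate 1, 0.13 without WT replicate 2, 0.061 and 0.0077 without M8 replicates 1 and 2, and 0.0024 after median centring).

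The next gene on the chromosome to IDH1 is NCE103, which encodes carbonic anhydrase. NCE103 rose too, by 0.69 (SE 0.091, adjusted p = 0.0354), from 8.03 and 8.09 in WT to 8.73 and 8.76 in M8. In M1 it read 9.28 and 9.11, above the M8 arrays.

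Lysine is made from 2-oxoglutarate in yeast, and most genes of this pathway were nominally higher. Of 9 measured genes 1 rose and 0 fell, 7 were nominally higher and 0 lower, and the median was 0.44. LYS9, which encodes saccharopine reductase near the end of the pathway, stood at 9.51 and 9.53 in WT and at 10.12 and 10.25 in M8, a rise of 0.67 (SE 0.095, adjusted p = 0.0407). The last enzyme, LYS1, differed by 0.55 (adjusted p = 0.0588), from 9.19 and 9.27 to 9.82 and 9.73. Homocitrate synthase LYS20, at the entry, differed by 0.47, LYS12 by 0.47, LYS2 by 0.44 and the activator gene LYS14 by 0.40. LYS5, which activates Lys2 by adding its cofactor, was the member with a lower mean (-0.14). The 54 genes of other amino acid pathways held 12 nominally higher and 1 lower, 0 called, with a median of 0.11 (0.062 after quantile normalization). Among the 12 were ILV6 (0.40), HOM2 (0.38), ARG1 (0.37) and GDH1 (0.36). The list of 25 sulfur amino acid genes held 2 nominally higher and 3 lower, 0 called. Its median was -0.047 (-0.0186 without M8 replicate 2, and -0.0755 after median centring).

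**Figure D4:**
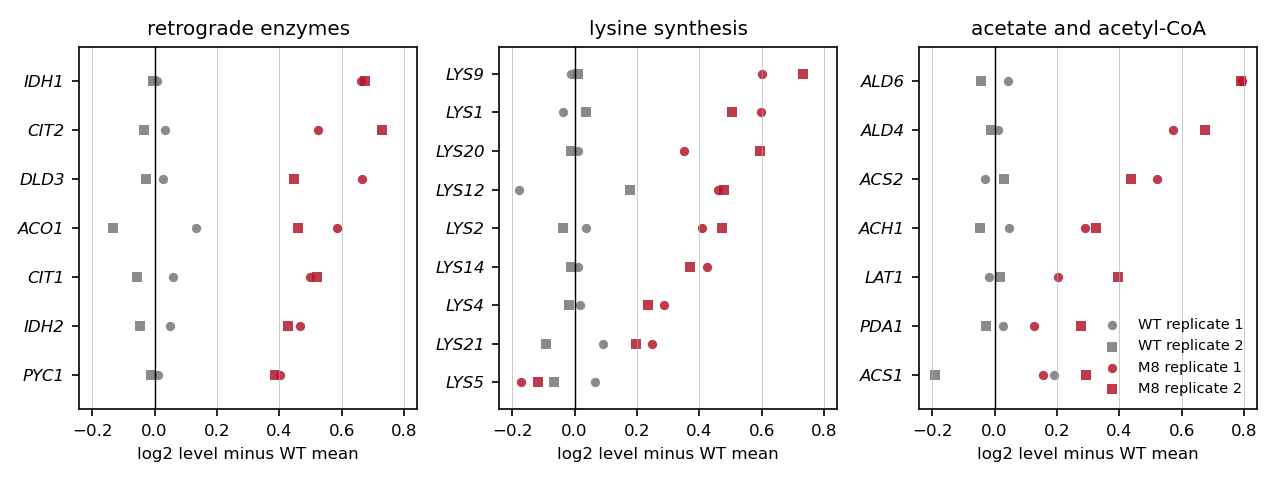
Log2 level minus the WT mean for the 7 retrograde enzymes, the 9 measured lysine synthesis genes and 7 acetate and acetyl-CoA genes, on the WT (grey) and M8 (red) arrays, with circles for replicate 1 and squares for replicate 2. Retrograde enzymes stand 0.39 to 0.67 above WT in the mean, and LYS5 is the gene below 0.

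Several genes of acetaldehyde oxidation and of the supply of acetyl-CoA, the donor used by histone acetyltransferases, were nominally higher. ALD6, the cytosolic acetaldehyde dehydrogenase, stood at 9.56 and 9.47 in WT and 10.31 on both M8 arrays. It rose 1.73-fold, by 0.79 (SE 0.092, adjusted p = 0.0259). A second probe set of ALD6 differed by -0.32, with values of 3.27 and 3.87 in WT and 3.24 and 3.27 in M8, and with the mean of both probe sets the call was lost (adjusted p = 0.342). ALD4, the mitochondrial isoform, rose by 0.62 (adjusted p = 0.0438), from 8.96 and 8.94 to 9.52 and 9.63. ACS2, the acetyl-CoA synthetase used on glucose, differed by 0.48 (adjusted p = 0.0821) and the CoA transferase gene ACH1 by 0.31. Of 15 genes in the list 2 rose and 0 fell, with 5 nominally higher and 0 lower.

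PDH1 showed the largest rise of all genes. It encodes a mitochondrial protein of the methylcitrate cycle, which breaks down propionate. It stood at 6.76 and 6.59 in WT and at 7.97 and 7.84 in M8, a 2.34-fold rise of 1.23 (SE 0.105, adjusted p = 0.0137). The other genes of this cycle, ICL2 and CIT3, differed by 0.10 and 0.079. In M1, PDH1 read 8.16 and 7.82.

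In the pentose phosphate pathway, which yields NADPH, SOL4 rose. SOL4, a 6-phosphogluconolactonase gene, stood at 6.79 and 7.01 in WT and 7.67 and 7.68 in M8, a difference of 0.78 (SE 0.105, adjusted p = 0.0354). ZWF1, glucose-6-phosphate dehydrogenase at the entry, differed by 0.52 (adjusted p = 0.0618), from 8.62 and 8.59 to 9.17 and 9.08. RKI1, ribose-5-phosphate isomerase, was nominally lower at -0.39 (adjusted p = 0.168). Over 13 genes 4 were nominally higher and 1 lower. Of 17 glycolysis genes, 2 were nominally higher and 0 lower, with a median of 0.049 (0.088 without WT replicate 1, 0.081 without M8 replicate 2, and 0.020 after median centring).

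Several genes of the iron regulon, which Aft1 activates when iron is scarce, were nominally higher. Of 26 measured genes 2 rose and 0 fell, and 9 were nominally higher and 1 lower, with a median of 0.11 (0.19 without M8 replicate 2). TIS11, which directs the decay of messages for iron-using proteins, stood at 5.71 and 5.86 in WT and 6.49 and 6.46 in M8, a rise of 0.70 (SE 0.097, adjusted p = 0.0379). FIT2, a cell wall mannoprotein that holds siderophore iron, went from 8.14 and 8.23 to 8.86 and 8.75, a rise of 0.63 (adjusted p = 0.0461). ISU1, the scaffold of iron-sulfur cluster assembly, differed by 0.51, FIT3 by 0.35 and the siderophore transporter genes ARN1, ENB1 and ARN2 by 0.34, 0.31 and 0.27. The reductive uptake genes FET3, a ferroxidase, and FTR1, an iron permease, differed by 0.16 and 0.11. The copper chaperone gene ATX1 was the nominally lower member, at -0.32, while 5 of the 26 had the lower mean in M8.

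Proteasome genes showed a small common direction. Of 33 subunit genes 0 were called, 30 had the higher mean in M8, and both M8 arrays lay above both WT arrays in 17 and below both in 0. Their median was 0.13 (0.057 without WT replicate 1 and 0.21 without WT replicate 2), and 4 were nominally higher and 0 lower, a share near the background. The largest differences were those of RPN7 (0.32), PUP1 (0.28), RPN6 (0.25) and RPT4 (0.21). The gene of their activator RPN4 stood at 8.30 and 8.58 in WT and 8.38 and 8.52 in M8. Ubiquitin-related genes looked at after their values were seen were UBI4, the stress-induced polyubiquitin gene (0.51, adjusted p = 0.0613), the shuttle receptor gene DSK2 (0.52) and RUB1, a ubiquitin-like modifier gene (-0.54 and, on its other probe set, -0.50).

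The remaining genes that rose belong to no common list. RDS1, a zinc cluster transcription factor gene, stood at 4.24 and 4.18 in WT and 5.26 and 5.11 in M8, a 1.97-fold rise of 0.98 (SE 0.097, adjusted p = 0.0158). AVT6, a vacuolar exporter of acidic amino acids, went from 6.07 and 5.98 to 6.71 and 6.74, a rise of 0.70 (SE 0.093, adjusted p = 0.0354). AVT6 was the single nominally higher gene among 9 vacuolar amino acid transporters, and 0 were lower.

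Among the genes that fell, HSP30, a plasma membrane stress protein that restrains the proton pump Pma1, stood at 8.38 and 8.52 in WT and 7.47 and 7.64 in M8. It fell by 0.90 on the log2 scale (SE 0.105, adjusted p = 0.0259), and WT was 1.86-fold higher. TPO2, a polyamine exporter gene, read 11.49 on both WT arrays and 10.67 and 10.77 in M8, a difference of -0.77 (SE 0.093, adjusted p = 0.0288). TPO2 and HSP30 are among the targets of Haa1, the activator of the weak acid response, of which 15 were measured. In that list 0 rose and 2 fell, 1 was nominally higher and 3 lower, and the median was 0.029. It was -0.090 and 0.11 without WT replicates 1 and 2, 0.10 and -0.047 without M8 replicates 1 and 2, and -0.075 after quantile normalization.

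IZH2, a membrane receptor-like protein of zinc homeostasis, went from 8.69 and 8.72 in WT to 8.07 and 8.01 in M8, a difference of -0.67 (SE 0.091, adjusted p = 0.0354). Its relatives differed in both directions, with IZH4 at -0.48, IZH1 at -0.23 and IZH3 at 0.30. Over 12 zinc genes 1 fell, and 2 were nominally higher and 4 lower. DAL4, the allantoin permease gene, stood at 5.64 and 5.78 in WT and 5.11 and 5.0 in M8, a difference of -0.65 (adjusted p = 0.0461). Of 29 genes under nitrogen catabolite control 1 fell, and 5 were nominally higher and 2 lower. Among the higher was CAR2, ornithine transaminase, at 0.60 (adjusted p = 0.0626).

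STP4, a zinc finger protein gene, read 8.10 and 8.14 in WT and 7.47 and 7.55 in M8, a difference of -0.61 (SE 0.092, adjusted p = 0.0438). WIP1, a kinetochore protein gene, went from 6.5 and 6.60 to 5.84 and 5.92, a difference of -0.67 (SE 0.094, adjusted p = 0.0401). Of 14 mitotic genes 0 were called and 0 were nominally higher or lower. OLE1, the fatty acid desaturase, differed by -0.53 (adjusted p = 0.0553), from 11.93 and 11.91 to 11.36 and 11.41. The pheromone gene MFA1 stood at 12.49 and 12.47 in WT and 11.96 and 11.83 in M8, a difference of -0.59 (adjusted p = 0.0517), and its other probe set differed by -0.37. Together with the agglutinin gene AGA2 (-0.52) it made up the 2 nominally lower of 7 MATa-specific genes, while 0 were nominally higher. Of the 7, 3 had the higher mean in M8, and the median was -0.011. With 1 array left out the median ran from -0.14 (WT replicate 2) to -0.051 (WT replicate 1).

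Just outside the threshold, 16 genes had an adjusted p of 0.05 to under 0.06. Besides those named, they included YDR034C-A, a small open reading frame in Ty-derived repeat sequence, with 9.16 and 8.57 in WT and 7.76 and 7.77 in M8. Its difference of -1.10 (adjusted p = 0.0504) was the largest in the lower direction, but its WT duplicates lay far apart and its other 6 probe sets gave -0.37 to 0.045.

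Genes for making ribosomes had slightly lower means in M8. None of the 84 measured ribosome biogenesis factors was called. Of these, 66 had the lower mean, both M8 arrays lay below both WT arrays in 31 and above in 4, and 12 were nominally lower and 1 higher. The median was -0.095. GAR1, a protein of the particles that make pseudouridine, stood at 11.54 on both WT arrays and 11.23 and 11.04 in M8, a difference of -0.40 (adjusted p = 0.140). The RNA helicase gene DBP2 differed by -0.38, NOP16 by -0.34 and the GTPase gene NUG1 by -0.32.

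Of 81 measured cytosolic ribosomal protein genes, 10 were nominally lower and 3 higher, with a median of -0.052 (-0.088 without WT replicate 1, and -0.081 after median centring). Their differences ran from -0.51 to 0.47. Among the nominally lower were RPS26B (-0.51, adjusted p = 0.0746) and RPS27A (-0.46, adjusted p = 0.0840), each of which has a close copy. RNA polymerase I and III subunits, 19 measured, held 1 nominally lower and 0 higher with a median of -0.069 (-0.13 after quantile normalization, -0.11 and -0.026 without M8 replicates 1 and 2, and -0.038 without WT replicate 2). The 67 mitochondrial ribosomal proteins held 4 past the unadjusted limit in each direction with a median of -0.016 (-0.081 without WT replicate 1, 0.061 without WT replicate 2, and -0.045 after median centring).

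RNAs other than messages mostly had lower means in M8. SNR68, a box C/D RNA that guides methylation of ribosomal RNA, stood at 5.68 and 5.90 in WT and 4.90 and 4.88 in M8, a difference of -0.89 (SE 0.105, adjusted p = 0.0259). Of 61 small nucleolar and nuclear RNA genes 1 fell, 13 were nominally lower and 0 higher, and the median was -0.14 (-0.063 without WT replicate 1 and -0.21 without WT replicate 2). Of 91 transfer RNA genes 0 were called, 44 were nominally lower and 0 higher, and both M8 arrays lay below both WT arrays in 67 and above in 1. The transfer RNA median was -0.23, with -0.26 on M8 replicate 1 and -0.17 on M8 replicate 2 against the WT mean. In M1 the median difference of these genes from WT was -0.052.

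Messages of the 181 genes under 300 bases had a median difference of -0.090. Their medians against the WT mean of each gene were -0.12 and -0.083 on the M8 arrays and -0.011 and 0.011 on the WT arrays. The 691 genes of 300 to 599 bases had a median of -0.034, but their M8 arrays, at -0.045 and -0.026, lay between the WT arrays, at -0.049 and 0.049. In the 1750 genes of 600 to 1199 bases, with a median of 0.050, M8 replicate 1 (0.041) likewise lay below WT replicate 2 (0.045). The 2864 genes of 1200 bases or more had a median of 0.044. Of the genes under 300 bases 10 (5.5%) were nominally higher and 34 (18.8%) lower. In the longest class 294 (10.3%) were nominally higher and 81 (2.83%) lower. The shares over all genes were 10.2% and 5.91%, so the higher share of the longest class was near the background. These length limits were set after the values were seen. RNAs without a tail of adenines are not the usual substrate of the 3' labelling kit, and the part of RNA length or recovery in the lower values was not tested.

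**Figure D5:**
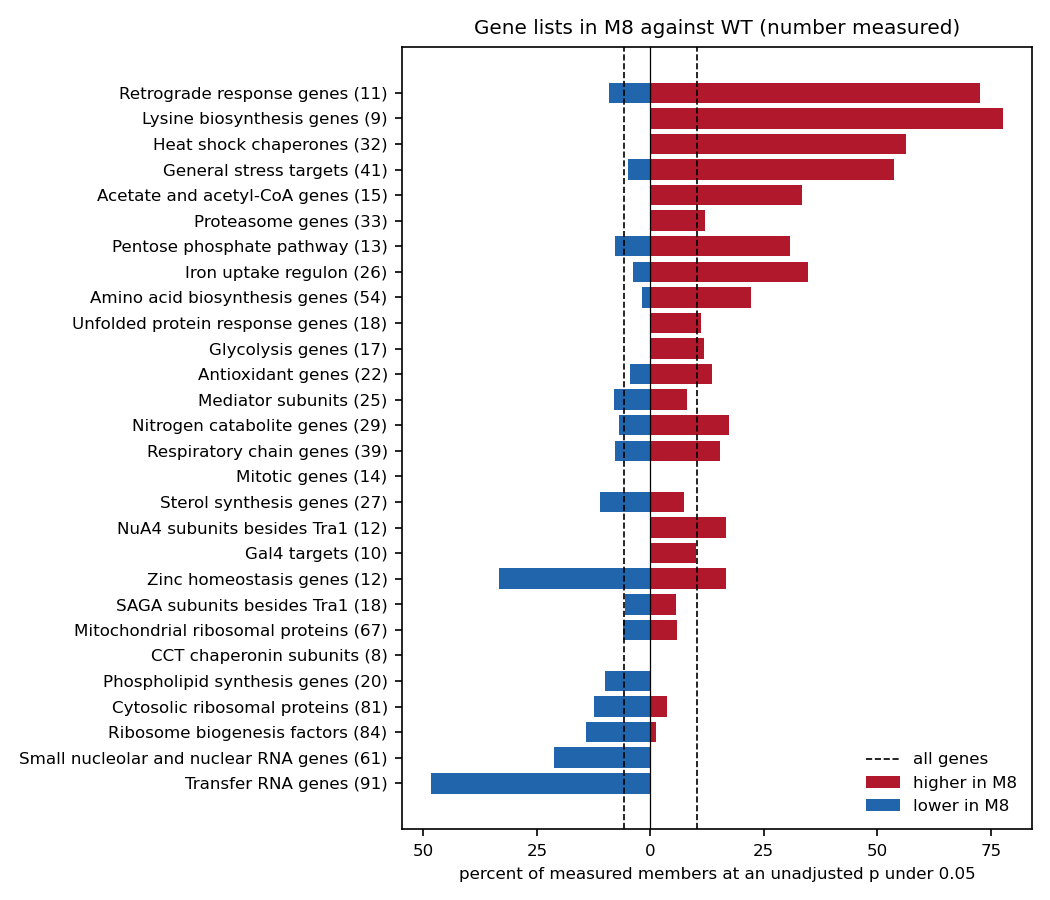
Percent of measured members of each gene list that were higher (red) or lower (blue) in M8 at an unadjusted p under 0.05, ordered by the median log2 difference, with the number measured in brackets. Dashed lines mark the shares over all genes, 10.2% higher and 5.91% lower. Retrograde, lysine, chaperone and stress lists reach furthest right, and transfer RNA genes furthest left.

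Set beside the other mutant, the 23 genes had M1 means on the same side of WT. Both comparisons share the WT arrays, so this is given as values alone. The M1 arrays of the 23 genes did not all lie clear of WT. SNR68 read 4.88 and 5.97 in M1 against 5.68 and 5.90 in WT, and FIT2 8.60 and 8.15 against 8.14 and 8.23. HSP82 was 1.11 above WT in M8 and 1.11 in M1, PDH1 1.23 and 1.31, IZH2 -0.67 and -0.64, and HSP30 -0.90 and -1.01. List medians in M8 and M1 were 0.45 and 0.46 for the retrograde list and 0.44 and 0.34 for lysine synthesis. They were 0.33 and 0.28 for chaperones and 0.28 and 0.24 for general stress. For proteasome genes they were 0.13 and 0.023, for the iron regulon 0.11 and 0.013, and for ribosome biogenesis factors -0.095 and 0.0115. The test of M8 against M1, on all 6 arrays, called 0 genes after Benjamini-Hochberg adjustment in limma, with 364 genes (6.44%) at an unadjusted p under 0.05. Of the 23 genes, 5 stood there, but they had been called on the same M8 arrays that this test uses. Such a choice favours genes with M8 further from WT than M1, so these too are values alone. TIS11 was 0.70 above WT in M8 and 0.18 in M1, FIT2 0.63 and 0.19, TFS1 0.60 and 0.28, and TPO2 -0.77 and -0.20. NCE103 had the opposite order, at 0.69 in M8 and 1.14 in M1.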

How the data were processed

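Total RNA of YPD cultures was labelled with biotin by an Affymetrix 3' IVT kit, per the labels' protocols. The authors deposited log2 expression values per probe set, made with RMA and oligo per the submitters' processing notes. Their versions and settings are not given in the sources used here. Scaling between arrays hides any shift common to all messages, and the number of arrays limits the precision.

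Of 9275 probe sets, 6504 name a single gene by the platform annotation, and the one with the highest mean over 6 arrays was kept for each of 5656 genes. Gene names and lengths came from the R64 gene table. Probe sets naming several genes or no gene (2771), and promoter motifs, were not analysed here.

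Differences were fitted with limma 3.58.1 in R 4.3.3 (lmFit, eBayes defaults, two-sided) on the 2 WT and 2 M8 arrays, leaving 2 residual degrees of freedom, and adjusted by Benjamini-Hochberg over all genes. The fit was run on data simulated with independent normal noise and variances drawn from its own fitted prior. Such data cannot test the assumptions of the fit. Lists were described by counts and medians, with no set test. Genes named were all called genes, TRA1, GAL4, the Gal4 targets, and up to 6 members of each described list with the smallest p (2 in the opposite direction). The genes named beyond this rule (ARN1, ARN2, DSK2, FET3, FTR1, HSC82, HSP26, LYS21, PYC1, RPN4, RTG3, RUB1, UBI4, YDR034C-A) were chosen after their values were seen. Members, lists and tests were chosen with earlier results of these data known. Alternatives covered the spread estimate, moderation, scaling, filtering, probe set choice, a replicate block and leaving out each array.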

Additional observations from a re-analysis of the deposited data

How the results depend on the processing

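The count of 23 called genes (16 higher, 7 lower) became 0 when all 6 arrays set the spread, in the ordinary linear model, after quantile normalization and with all single-gene probe sets tested. In the settings by gene, in that order, 399, 613 and 862 genes had an unadjusted p under 0.05 by limma or the linear model, against 912. In the last setting 978 of 6504 probe sets did, a count of probe sets and not of genes. The count of called genes became 53 (39 higher, 14 lower) with a trend in the prior variance and 45 (35 higher, 10 lower) without the genes of lowest mean level (4242 genes left). Median centring called 17, of which 10 were higher. With the replicate number as a block 221 genes were called, 148 higher and 73 lower. Replicate 1 minus replicate 2 correlated at 0.30 over genes between the strains, and the labels do not say that equal numbers were paired. Leaving out 1 array gave 27 to 635 calls, 17 to 472 higher and 10 to 212 lower, and a lone array is assumed to vary like the other strain. The 23 genes kept their direction in every alternative that measured them. Of them, 17 were still called after centring, 21 without M8 replicate 1, 17 without M8 replicate 2 and 22 with the mean of probe sets. The sign turned for GAL80 (-0.018 after median centring, -0.0039 after quantile normalization, -0.11 to 0.13 with 1 array left out), HSP26 (-0.0042, -0.0057 and -0.091 to 0.14) and RPN4 (-0.017, -0.0053 and -0.13 to 0.15). With 1 array left out it also turned for GAL10 (-0.14 to 0.056), GAL3 (-0.18 to 0.17), GAL7 (-0.22 to 0.056) and PCL10 (-0.12 to 0.11). None of these was called. The cause of these shifts was not tested. RMA gives no detection call, so how far low levels stood above background is unknown.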
